A study of Mus musculus with 8 samples.

Results

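The potassium channel genes examined here are the genes whose mouse symbol starts with Kcn. Members were the probes that the platform annotation assigns to exactly 1 such gene, 84 probes for 67 genes, out of 31769 probes on the array and 14510 genes that have such a probe. The symbols of all 84 probes matched RefSeq by gene identifier, and 66 of the genes encode channel proteins or their regulators. The last is Kcnmb4os1, a noncoding RNA on the strand opposite a calcium-activated channel subunit gene, which is counted apart. RNA came from C2C12, a mouse muscle precursor line whose cells withdraw from the cycle and form multinucleated myotubes in low serum. In 4 samples the cells had been stably selected with a retrovirus encoding HDAC4, a class IIa histone deacetylase, together with the Neo selection gene. In the other 4 samples (Neo) they had been selected with a retrovirus encoding Neo alone. Both groups were grown to 90% confluence and then held in 2% horse serum for 4 days. Each array carried RNA of the cells labelled with Cy5 and a common murine reference RNA labelled with Cy3, and no dyes were swapped. The labels do not say whether samples of a group were separate cultures, so a p-value here measures only how far these arrays scatter, and that scatter may be technical. Whether the selected cells were pools or clones was a point not given in the sources used here.

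Potassium channels let potassium ions leave or enter the cell along their gradient and so set the resting potential and end action potentials. In skeletal muscle, inward rectifiers and chloride channels hold the membrane near rest, and a more negative membrane potential accompanies the differentiation and fusion of myoblasts. The genes fall into families: voltage-gated pore subunits, silent subunits that modify them, inward rectifiers, 2-pore-domain leak channels, channels opened by calcium or sodium, and accessory subunits.

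The deposited value is a log2 ratio of the 2 channels, read here as cells over reference because markers of differentiated muscle lay far above 0. The creatine kinase gene Ckm had a log2 ratio of 9.28 ± 0.25 in HDAC4 and 9.45 ± 0.35 in Neo, and desmin (Des) had 6.74 ± 0.39 in HDAC4 and 6.72 ± 0.16 in Neo (SD, n = 4 each). That direction is likely rather than stated in the labels. Every array was centred on its median, and a log2 ratio of 0 then means the same relative signal as the middle probe of the array, so ratios do not compare the abundance of different genes. In many values 10 times the ratio is a whole number, as when the reference signal is set to a minimum of 10 units; such values are called values at the reference floor, and the floor is inferred, not stated. For them the value carries the signal of the cells' channel alone, and it can be written in units of which the reference floor is 10. Arrays numbered 1 stood apart from the others in both groups: across probes they correlated at 0.94 with each other and at 0.90 or less with any other array. The annotation names 0 probes for Hdac4, and the group labels were therefore not checked against the introduced gene.

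The promoters of 3 genes are shown because their probes carry the comparisons given further on. Kcnn1 and Kcnk2 had the smallest p-values among the potassium channel probes, and Kcnj12 had the highest ratio over the reference. Each is a RefSeq window of 300 bases in build GRCm38.p6, from 250 bases before to 50 bases after the annotated start, read 5′ to 3′ in the table's orientation. For genes with several windows, the one farthest upstream is printed. Capitals mark every CANNTG, the E-box core bound by myogenic transcription factors.
Kcnn1, chr8:70863209-70863508, minus strand: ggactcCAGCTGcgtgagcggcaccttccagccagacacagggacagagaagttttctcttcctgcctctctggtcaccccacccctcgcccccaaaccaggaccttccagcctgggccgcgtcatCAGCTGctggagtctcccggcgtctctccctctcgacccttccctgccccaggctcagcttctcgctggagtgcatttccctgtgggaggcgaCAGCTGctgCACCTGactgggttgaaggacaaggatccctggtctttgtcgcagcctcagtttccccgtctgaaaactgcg
Kcnk2, chr1:189402224-189402523, minus strand: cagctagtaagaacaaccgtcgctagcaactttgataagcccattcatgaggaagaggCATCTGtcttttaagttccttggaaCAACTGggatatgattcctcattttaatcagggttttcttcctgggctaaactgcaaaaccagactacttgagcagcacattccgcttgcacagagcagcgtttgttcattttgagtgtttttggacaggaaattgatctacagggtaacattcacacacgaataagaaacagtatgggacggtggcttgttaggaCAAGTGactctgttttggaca
Kcnj12, chr11:61065554-61065853, plus strand: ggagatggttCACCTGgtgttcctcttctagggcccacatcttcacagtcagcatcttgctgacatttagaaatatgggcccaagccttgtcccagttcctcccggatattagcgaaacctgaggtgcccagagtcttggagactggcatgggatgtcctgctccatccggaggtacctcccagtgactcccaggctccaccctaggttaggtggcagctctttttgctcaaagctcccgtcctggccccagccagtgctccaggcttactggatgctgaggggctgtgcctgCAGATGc
The Kcnn1 window held 4 CANNTG matches, of which 3 read CAGCTG, the Kcnk2 window held 3 and the Kcnj12 window held 2. At least 4 CANNTG matches were present in 6.49% of all 32851 windows, at least 3 in 17.6% and at least 2 in 39.6%. At least 3 CAGCTG matches were present in 0.207% of them. The second Kcnn1 window, at another annotated start, also held 4 CANNTG matches, with CAGCTG once. The other Kcnk2 windows held 1, 1 and 0 CANNTG matches. CAGCTG matches are a subset of the CANNTG matches, and as both motifs are palindromic a match reads the same on the other strand. The consensus of MEF2, the transcription factor that class IIa deacetylases bind, was searched on both strands and was found in none of the 19 windows of testable potassium channel genes, in 2 of the 75 windows of all 52 matched genes, and in 3.19% of all windows. These matches are descriptions of letters in short windows.

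Most potassium channel probes gave no or few values. Of the 84 probes, 36 had no value on any array (42.9%), whereas 22.3% of all probes on the array had none. Another 9 probes had a value on all 8 arrays (10.7%, against 46.4% of all probes), and 39 had between 1 and 7 values. Among the 67 genes, 43 had at least 1 value and 24 had none. Kcna1, Kcna2 and Kcna6 (delayed rectifiers best known from neurons), Kcnj8 and Kcnj10 (an ATP-sensitive and a glial inward rectifier), Kcnk3 (an acid-sensitive leak channel), Kcnn2 and Kcnt1 were among the genes without a value. The large-conductance calcium-activated channel gene Kcnma1 had 3 probes, of which 1 carried a single value, on Neo replicate 4. Why values are missing was also not given in the sources used here, so an empty position is not read as absence of the transcript.

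Fewer potassium channel probes carried a value in HDAC4. On the 4 HDAC4 arrays 14, 13, 26 and 22 of the 84 probes had a value, against 25, 28, 38 and 33 on the 4 Neo arrays. The means were 18.8 ± 6.29 probes in HDAC4 and 31.0 ± 5.72 in Neo (SD, n = 4 each), and the groups overlapped, since HDAC4 replicate 3 lay above Neo replicate 1. As a share the means were 22.3% in HDAC4 and 36.9% in Neo. All probes of the array moved the same way, with 56.2% ± 2.20 carrying a value in HDAC4 and 65.0% ± 4.17 in Neo. Among probes with 1 to 7 values, 25.0% of positions were filled in HDAC4 and 56.4% in Neo for the 39 potassium channel probes, and 31.1% in HDAC4 and 59.3% in Neo for all 9951 such probes. The lower share in HDAC4 was thus also present over the whole array, and the part of signal strength in it was not tested.

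**Figure D1:**
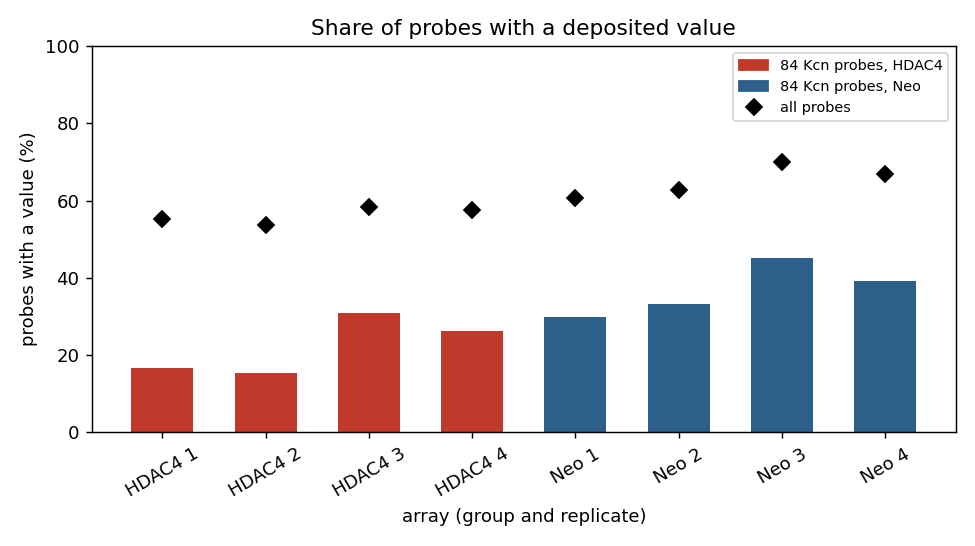
Share of probes with a deposited value (%) on each array, as bars for the 84 potassium channel probes and as diamonds for all 31769 probes. The bars lie between 15.5% and 31.0% on HDAC4 arrays and between 29.8% and 45.2% on Neo arrays, and the diamonds are also lower on HDAC4 arrays.

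Of the 84 probes, 2 had more values in HDAC4 and 31 had more in Neo, where all probes of the array gave 2.95% and 24.8%. None had a value in HDAC4 without one in Neo, against 1.22% of all probes, and 17 (20.2%) had values in Neo without one in HDAC4, against 12.3% of all probes. These 17 probes, for 15 genes, held 29 Neo values with a median log2 ratio of 0.25, and 14 of the values were at the reference floor, between 10 and 18 units. Only 3 probes had 4 values in Neo and at most 1 in HDAC4 (3.57%, against 1.73% of all probes), and 0 had the opposite pattern (0.0189% of all probes).

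**Figure D2:**
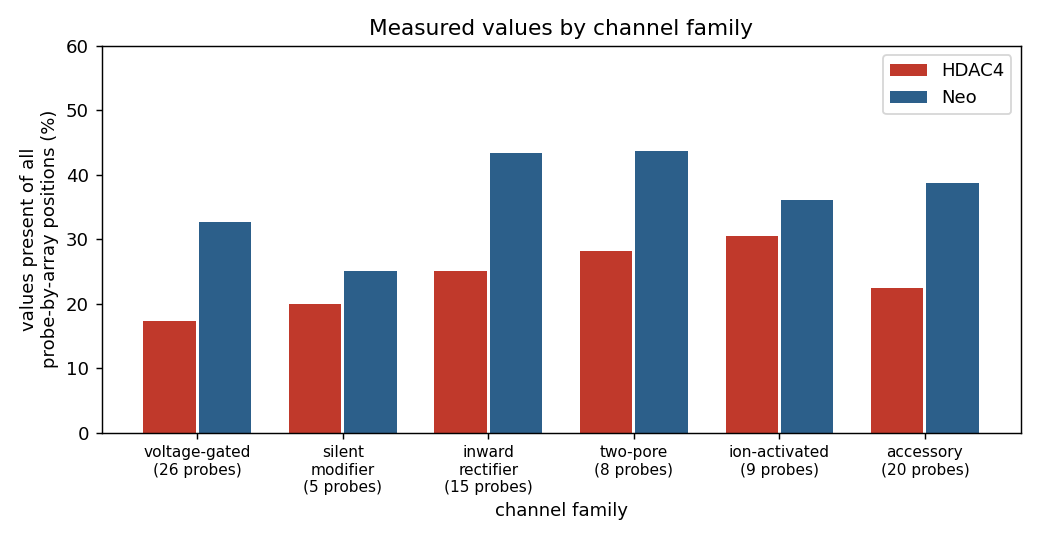
Filled probe-by-array positions (%) in each channel family, HDAC4 left and Neo right, from 4 arrays a group. Every family has a lower share in HDAC4. The HDAC4 share is lowest for voltage-gated subunits (17.3%, with 32.7% in Neo) and highest for ion-activated channels (30.6%, with 36.1% in Neo). Over all probes of the array the shares are 56.2% in HDAC4 and 65.0% in Neo.

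Those 3 probes belong to Kcnip2, Kcna7 and Kcnk7, and Kcnip2 alone had 4 values in Neo and 0 in HDAC4 (1.19% of the members, against 0.523% of all probes). Kcnip2 encodes KChIP2, a calcium-binding subunit that brings Kv4 channels to the membrane. Its probe had no value on HDAC4 arrays and log2 ratios of 0.66, 0.84, 0.28 and 0.38 on the Neo arrays, the first 2 of them at the floor with 16 and 18 units. Kcna7, a voltage-gated subunit known from skeletal muscle and heart, had 0.66 on HDAC4 replicate 3 alone, against 0.12, -0.10, 0.57 and 0.27 on the Neo arrays. The HDAC4 value lay above the 4 Neo values. Kcnk7, a 2-pore-domain subunit, had 0.37 on HDAC4 replicate 1 alone, against 0.12, -0.75, -0.35 and 0.35 on the Neo arrays. Kcna7 and Kcnk7 each had a further probe with no value on any array. No test was possible for the 3 probes, and all of their values lay within a log2 ratio of 1 of the array median.

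A comparison of HDAC4 with Neo needed at least 3 values in each group, and 13 potassium channel probes of 13 genes met this (15.5%, against 52.7% of all probes). They are the members with enough signal on most arrays and do not stand for the other 54 genes. In limma, none of the 13 passed an adjusted p of 0.05 over all 16748 probes tested, where 0.125% of probes passed. At an unadjusted p under 0.05 there were 2 potassium channel probes, Kcnn1 and Kcnk2, both lower in HDAC4, where 7.03% of all probes reached that mark with 4.4% lower and 2.63% higher in HDAC4. The signs were mixed, with 7 changes above 0 and 6 below, and the median log2 change was 0.07, beside -0.0036 over all probes tested. The other 11 probes had adjusted p between 0.770 and 0.980, with 95% intervals that include 0.

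**Figure D3:**
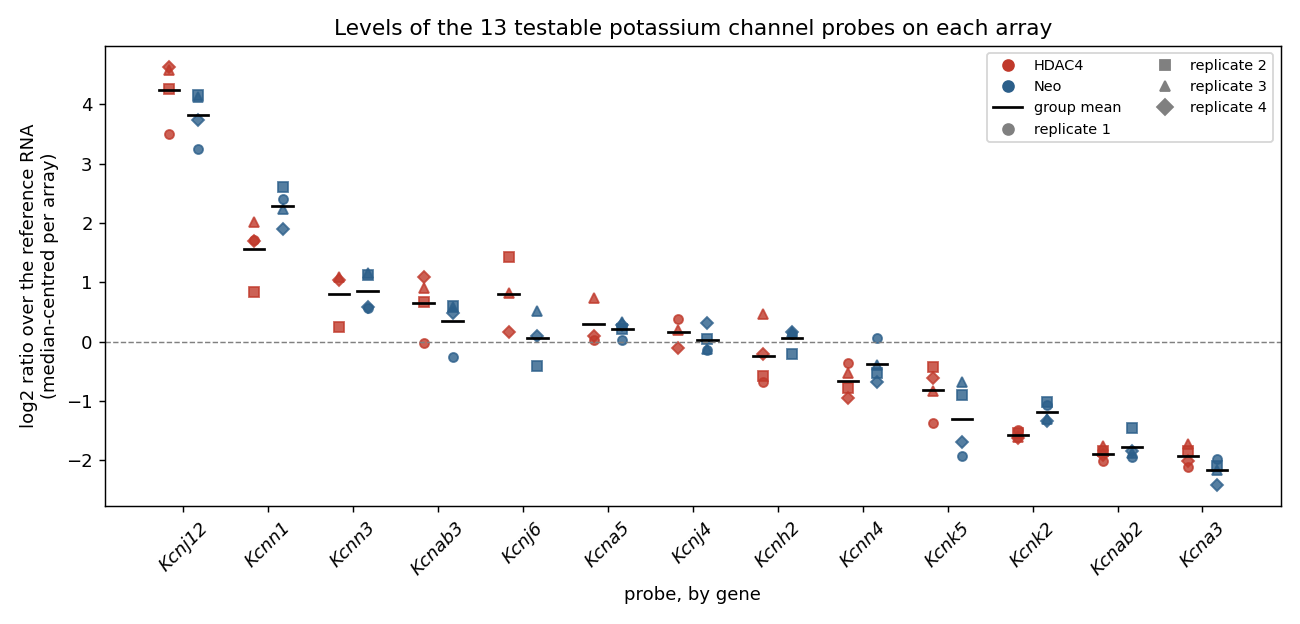
Median-centred log2 ratio over the reference RNA for the 13 testable potassium channel probes, ordered by mean level, with a symbol per array (HDAC4 left, Neo right) and a line at each group mean. Kcnj12 lies between 3.25 and 4.63, Kcnn1 between 0.84 and 2.60, and Kcna3, the lowest, between -2.42 and -1.72.

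Among the voltage-gated pore subunits, 13 of 26 probes had a value and 3 could be tested. Kcna3, the Kv1.3 channel best known from T cells, gave -2.11, -1.84, -1.72 and -2.01 in HDAC4 and -1.97, -2.09, -2.17 and -2.42 in Neo. All 8 values lay well below the reference, and the groups overlapped (log2 change 0.24 ± 0.15, SE; adjusted p = 0.843). The change was 0.15 without Neo replicate 4 and 0.37 without both arrays numbered 1. Kcnh2, the ERG channel, gave -0.67, -0.58, 0.47 and -0.20 in HDAC4 and 0.13, -0.20, 0.16 and 0.16 in Neo. Its HDAC4 arrays spread on both sides of the Neo arrays, and the change of -0.31 ± 0.24 (SE) had an adjusted p of 0.889. It was -0.17, -0.20 and -0.55 without HDAC4 replicates 1, 2 and 3, and -0.14 without both arrays numbered 1. Kcna5, the Kv1.5 channel, had 3 HDAC4 values between 0.04 and 0.74 and 4 Neo values between 0.04 and 0.32, with a change of 0.07 (95% interval -0.38 to 0.53). The other probes of this family with values, for Kcna4, Kcna7, Kcnc1, Kcnc2, Kcnd1, Kcnd3, Kcnh8, Kcnq1 and Kcnq3, had between 1 and 5 of them. The lowest value of all members came from 1 of the 2 probes of Kcnc1, a fast delayed rectifier, with -5.69 on Neo replicate 1 alone, while the other probe had 0.35 on Neo replicate 4. Kcnd3, a Kv4 subunit, had 0.56 on HDAC4 replicate 3 and -0.61, -0.39 and 0.21 on Neo replicates 2 to 4. The M-current subunit Kcnq3 had -0.02 and -0.02 in HDAC4 and 0.35 and -0.11 in Neo. The silent modifier subunits Kcng3, Kcns3 and Kcnv1 had 2 to 4 values each, Kcng4 and Kcns1 had none, and no member of that family could be tested.

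The inward rectifiers, which pass potassium more readily into the cell than out of it, held the member with the highest ratio over the reference. Kcnj12 encodes Kir2.2, a strong inward rectifier of muscle. Its probe gave 3.49, 4.27, 4.57 and 4.63 in HDAC4 and 3.25, 4.16, 4.13 and 3.74 in Neo (log2 ratio). All of these were at the reference floor, with signals of 113, 194, 242 and 252 units in HDAC4 and 96, 180, 176 and 136 units in Neo. The array numbered 1 was the lowest of its group on both sides, and among the arrays numbered 2 to 4 every HDAC4 value lay above every Neo value. Over all 8 arrays the groups overlapped, with a mean of 4.24 ± 0.52 in HDAC4 and 3.82 ± 0.43 in Neo (SD, n = 4 each; change 0.42, 95% interval -0.23 to 1.07; adjusted p = 0.870; exact permutation p = 0.257). The change was 0.67 without HDAC4 replicate 1 and 0.23 without Neo replicate 1. With replicate 1 as a batch the same change had an adjusted p of 0.245, in a fit where 0.645% of all probes passed. Without both arrays numbered 1 it was 0.48 (adjusted p = 0.180), where 2.26% passed. Within the pair numbered 1 the HDAC4 array was higher by 0.24, with no test.

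Other probes at the reference floor went the opposite way. On every one of the 8 arrays 206 probes stood at the floor, and their median change was -0.55, with 20 higher in HDAC4 and 186 lower. Kcnj12 ranked at place 8 from the top of the 206. With each array's median deviation of these floor probes taken out of its floor values, the change of Kcnj12 was 0.97 ± 0.18 (SE; adjusted p = 0.213), where 0.0239% of all probes passed. With that offset and replicate 1 as a batch together, a combination chosen after the data were seen, it was 0.97 ± 0.11 (SE; adjusted p = 0.0179), in a fit where 0.376% of all probes passed. Kcnj12 was the 1 potassium channel probe that passed in any fit, and its call rests on both of these steps. Removing the offset raises the change of every probe wholly at the floor, and the SE leaves out the uncertainty of the offset. The step takes the shift of the 206 probes to be technical, which was not tested. Muscle genes such as Ckm and Ryr1 are among these probes.

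**Figure D4:**
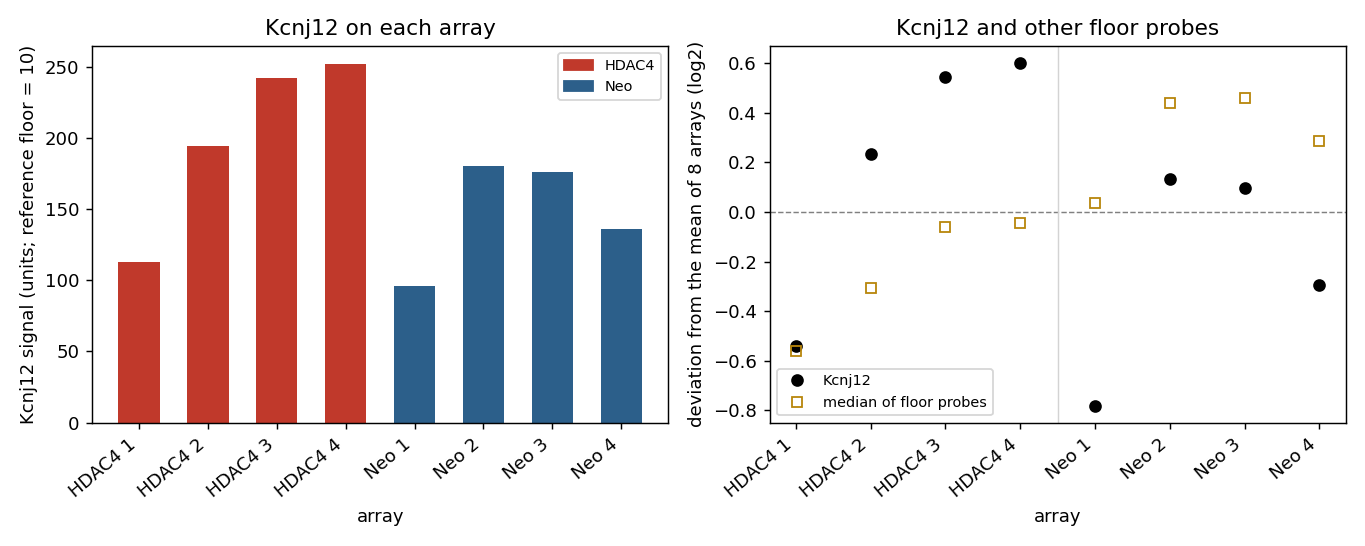
Left, Kcnj12 signal on each array in units of which the reference floor is 10, from 96 to 252. Right, the deviation of Kcnj12 from its mean over 8 arrays (log2, filled circles) beside the median deviation of all 206 probes that stayed at the floor throughout (open squares); Kcnj12 lies 0.02 to 0.65 above the squares on HDAC4 arrays and below them on all 4 Neo arrays.

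Kcnj2, the Kir2.1 channel whose activity is known to precede fusion in human myoblasts, had values on 3 arrays. It stood at 30 units on HDAC4 replicate 3 and at 14 and 13 units on Neo replicates 3 and 4, all at the floor, and had too few values for a test. Kcnj6 and Kcnj4 were the other testable members. Kcnj6, a G-protein-gated rectifier, gave 1.42, 0.83 and 0.17 on HDAC4 replicates 2 to 4 and -0.42, 0.52 and 0.10 on Neo replicates 2 to 4. The groups overlapped (change 0.74, 95% interval -0.10 to 1.57; adjusted p = 0.770), and 2 of the 3 HDAC4 values but 0 of the Neo values were at the floor. Kcnj4 (Kir2.3) had a change of 0.13 ± 0.18 (SE), with all values between -0.13 and 0.37. Kcnj3, the partner of other G-protein-gated rectifiers, and Kcnj11, the pore of the ATP-sensitive channel of muscle, had 3 Neo values each and none in HDAC4. The Kcnj11 values were 0.83, 0.39 and 0.56, and those of Kcnj3 were 0.36, 0.37 and 0.14. Kcnj1, Kcnj8, Kcnj10, Kcnj14 and Kcnj15 had no value on any array.

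Of the 2-pore-domain channels, which carry the background leak of potassium, 2 of 8 probes could be tested. Kcnk2 encodes TREK-1, a leak channel opened by stretch and by lipids. It gave -1.49, -1.54, -1.61 and -1.62 in HDAC4, against -1.07, -1.01, -1.30 and -1.34 in Neo. Every HDAC4 array lay below every Neo array, by at least 0.15, and none of the values was at the floor. The means were -1.57 ± 0.06 in HDAC4 and -1.18 ± 0.17 in Neo (SD, n = 4 each), a signal 1.31-fold lower in HDAC4. The change of -0.39 (95% interval -0.67 to -0.10) had an adjusted p of 0.523, and the exact permutation p was 0.0286, the smallest that 4 against 4 arrays allow. It was the 1 tested member whose groups did not overlap; over all probes tested, 3.18% did so with HDAC4 lower and 2.07% with HDAC4 higher. Kcnk2 kept a change between -0.44 and -0.33 in every alternative run, with adjusted p between 0.169 and 0.968.

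Kcnk5, the TASK-2 channel, which is known from alkaline-sensitive leak in the kidney, gave -1.37, -0.43, -0.84 and -0.60 in HDAC4 and -1.92, -0.91, -0.68 and -1.70 in Neo. The spread within both groups was large, and the change of 0.49 had a 95% interval of -0.20 to 1.18 (adjusted p = 0.849). It was 0.28 without Neo replicate 1 and 0.70 without Neo replicate 3. Its sign was opposite to that of Kcnk2, a contrast between genes that was not tested. Kcnk1 and Kcnk4 had 1 value each, in Neo, and Kcnk3 and Kcnk10 had none.

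Among channels opened by calcium or sodium, Kcnn1 had the difference farthest below 0 of the 13 tested probes. Kcnn1 encodes SK1, a small-conductance calcium-activated channel. It gave 1.72, 0.84, 2.01 and 1.70 in HDAC4 and 2.41, 2.60, 2.23 and 1.90 in Neo. Only HDAC4 replicate 3 reached into the Neo range, and replicate 2 held the lowest HDAC4 and the highest Neo value. The means were 1.57 ± 0.51 in HDAC4 and 2.29 ± 0.30 in Neo (SD, n = 4 each), or 1.65-fold lower in HDAC4 (change -0.72, 95% interval -1.30 to -0.14; adjusted p = 0.583; exact permutation p = 0.0571). All 4 HDAC4 values were at the reference floor, at 33, 18, 41 and 33 units, and 1 of the 4 Neo values was, at 61 units. The reference side of the ratio thus differed between the groups as well. With the offset of floor probes removed the change was -0.37, and without HDAC4 replicate 2 it was -0.48.

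Kcnn3 and Kcnn4 complete the testable members of that family. Kcnn4, the intermediate-conductance channel that accompanies growth of many dividing cells, gave -0.36, -0.78, -0.53 and -0.95 in HDAC4 and 0.07, -0.52, -0.39 and -0.68 in Neo. The ranges overlapped broadly (change -0.27, 95% interval -0.71 to 0.17; adjusted p = 0.877). The change was -0.17 without HDAC4 replicate 4 and -0.12 without Neo replicate 1. Kcnn3, the SK3 channel, whose transcript is known to return to muscle after denervation, gave 0.25, 1.09 and 1.05 on HDAC4 replicates 2 to 4 and 0.57, 1.12, 1.16 and 0.59 on the Neo arrays. Its change was -0.07 (95% interval -0.66 to 0.53), and it turned to 0.06 with the floor offset removed. The 3 small- and intermediate-conductance genes all had a change below 0, beside 50.6% of all probes tested.

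**Figure D5:**
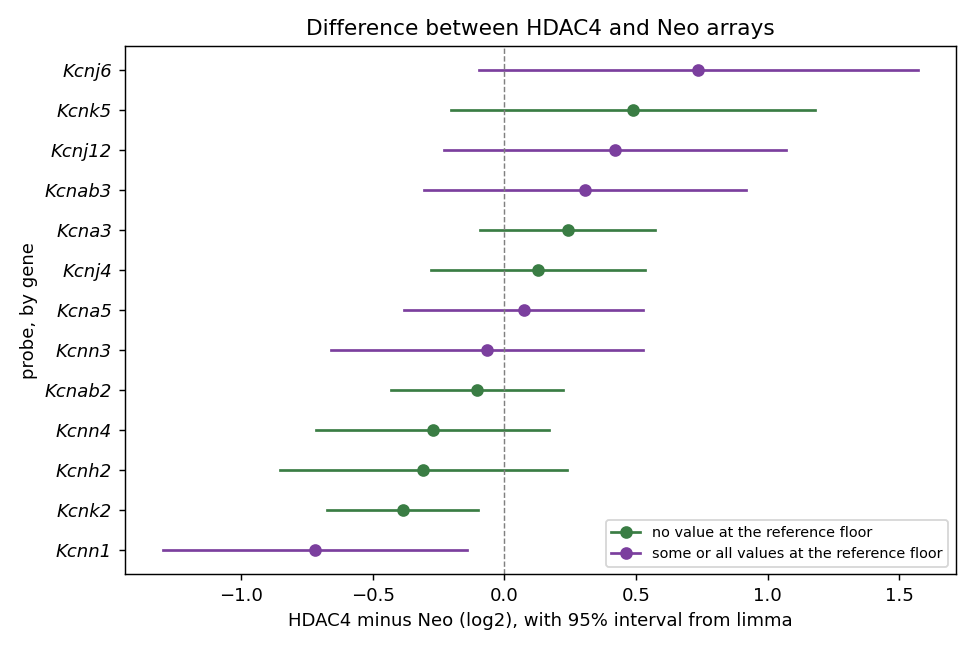
Log2 difference HDAC4 minus Neo with its 95% interval from limma for the 13 testable potassium channel probes, ordered by size; purple marks probes with some or all values at the reference floor. The intervals of Kcnn1 and Kcnk2 lie below 0 and the other 11 include 0.

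Accessory subunits gave 2 testable members. Kcnab2 and Kcnab3 encode cytoplasmic beta subunits of Kv1 channels. Kcnab2 gave -2.02, -1.85, -1.76 and -1.91 in HDAC4 and -1.95, -1.45, -1.88 and -1.84 in Neo, a narrow range with a change of -0.10 (95% interval -0.43 to 0.22). Kcnab3 gave -0.02, 0.67, 0.90 and 1.08 in HDAC4 and -0.26, 0.60, 0.58 and 0.48 in Neo. Both arrays numbered 1 were the lowest of their group, and the change of 0.31 ± 0.27 (SE) had an adjusted p of 0.895. It was 0.53 without HDAC4 replicate 1, 0.17 without HDAC4 replicate 4 and 0.10 without Neo replicate 1. Kcnab1 had 3 probes at different levels, the fullest with -1.90 and -1.93 on HDAC4 replicates 3 and 4 and -1.97, -2.42 and -1.88 on Neo replicates 1 to 3. Kcnmb1, the beta subunit of the large-conductance channel in smooth muscle, had -0.52 and -0.50 on HDAC4 replicates 3 and 4 and 4 values between -1.53 and -0.51 in Neo. Kcne1, the partner of Kcnq1, had 0.07 and -0.18 in HDAC4 and 0.11, -0.38, 0.46 and 0.45 in Neo. Both had too few HDAC4 values for the main comparison; with at least 2 values in each group required, their adjusted p were 0.789 and 0.936, and 0.114% of all probes passed there. The noncoding Kcnmb4os1 had 1 value, on Neo replicate 4.

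The 35 probes with values that could not be tested held 100 values, 88 of them within a log2 ratio of 1 of the array median. Above 1 there were 3, and below -1 there were 9. Of the 9 probes measured on all arrays, 3 had a mean ratio above 0 (Kcnj12, Kcnn1 and Kcnab3) and 6 below.

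Genes around these channels were read from lists chosen with the members, when earlier results of these data were known. Of 14 partner genes with a probe (auxiliary subunits, scaffolds, ubiquitin ligases and related cation channels without a Kcn symbol), 8 could be tested with 9 probes. None passed, 0 reached an unadjusted p under 0.05 in limma, and the median change was -0.08. Abcc9, the regulatory subunit of the muscle ATP-sensitive channel, had 3 probes and no value. Tmem38a, a cation channel of the sarcoplasmic reticulum, had the largest difference of the list at -0.84 ± 0.57 (SE; adjusted p = 0.870). Of other ion transport genes of the muscle membrane, 23 probes of 14 genes were tested and none passed; at an unadjusted p below 0.05 there were 4 probes lower in HDAC4 and 0 higher. As shares these are 17.4% at that mark, against 4.4% of all probes tested. Probes of the same gene are counted singly in these shares, and the list was not tested as a set. The median change was -0.31, and 19 of the 23 probes (82.6%) were lower, against 50.6% of all probes. Values at the reference floor occurred in 9 of the 23 probes. All 4 probes with nothing but floor values, the 3 of Cacna1s and a Ryr1 probe, were lower, as were 11 of the 14 with none. As given above, probes at the floor on all arrays were mostly lower too, and the part of the floor was not tested. The 4 probes at an unadjusted p below 0.05 in limma had adjusted p between 0.348 and 0.710. Clcn3, a chloride-proton exchanger, was at -0.44 in 1 of its 3 probes. The sodium pump subunit Atp1b1 was at -0.56 and Cacna2d1 at -0.57. Cacna1s, the dihydropyridine receptor pore, was at -0.45 in 1 of its 3 probes, with all 6 values at the floor.

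Kcnq1 lies in an imprinted domain, in which a noncoding RNA started inside the gene silences neighbours on the paternal chromosome. Kcnq1 itself had 0 values in HDAC4 and 2 in Neo, 0.25 and 0.11, both at the floor. Among its neighbours 6 probes of 5 genes were tested and all 6 had a change above 0, of median 0.22, where 49.4% of all probes did; a pair of the 6 belong to 1 gene, Tspan32. None passed, and 1 reached an unadjusted p under 0.05, which 7.03% of all probes reached. That one was Cdkn1c, the p57 cell cycle inhibitor, at 3.23, 5.11, 5.24 and 5.46 in HDAC4 and 2.16, 3.03, 3.01 and 3.09 in Neo (change 1.94 ± 0.46, SE; adjusted p = 0.249). The groups did not overlap, as in 2.07% of all probes tested with HDAC4 higher, and all values were at the floor. With replicate 1 as a batch the adjusted p in limma was 0.0103, in a fit where 0.645% of all probes passed. The other tested neighbours, Cd81, Tssc4, Tspan32 and Nap1l4, had changes between 0.10 and 0.26, with adjusted p between 0.881 and 0.962. Slc22a18 and Ascl2 had values in Neo alone and could not be tested. Over the 14 probes of the domain, Kcnq1 included, 44.6% of positions were filled in HDAC4 and 57.1% in Neo. For all probes of the array the shares were 56.2% and 65.0%.

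Markers of other cell types were read beside these results. Muscle markers had a median log2 ratio of 8.20 in HDAC4 and 8.38 in Neo, and none of their 5 tested probes passed. The sum of their linear ratios on an array ran from 1396 to 1900 in HDAC4 and from 1567 to 1986 in Neo. Of 6 neuron marker probes 2 had values. The 1 that could be tested, Tubb3, averaged 3.46 in HDAC4 and 3.42 in Neo, with 3 of its values at the floor and a change of 0.05. Fibroblast markers had a median of -2.89 in HDAC4 and -3.08 in Neo, though Dcn averaged -0.22 in HDAC4 and -0.73 in Neo. Their 3 tested probes had changes of 0.74 for Pdgfra, 0.51 for Dcn and 0.10 for Col1a2, and none passed. Of the myoblast or cycling markers, Mki67 averaged -4.36 in HDAC4 and -4.38 in Neo, and the change of Top2a was 0.16. Myf5 averaged 1.09 in HDAC4 and 1.49 in Neo, with 5 of its values at the floor. Its change was -0.40 (adjusted p = 0.814 in limma). Pax7 had no value. The 3 tested macrophage probes had changes of -0.98 for Ptprc, -0.07 for Cd68 and 0.56 for Adgre1, and none passed. Of 8 liver marker probes 4 had values, too few in each group for a test. Of these 10 values 9 were at the reference floor, and they ranged from -0.01 to 1.04, so where they were measured the liver markers were weak in the reference. This goes against the protocol that names murine liver as its source; the source label calls it a murine reference RNA. The part of other cell types in the channel values was not tested, and in these cultures fewer cells that express a gene cannot be told apart from less RNA per cell.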

How the data were processed

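Total RNA (10 µg, DNase treated, per the labels' protocols) of 4 HDAC4 and 4 Neo samples was hybridised against a common murine reference. A protocol names this reference as liver, which the marker values given in the results do not decide. The values the authors deposited are log2 ratios, at most 1 for a probe on an array; how background, normalization and filtering were handled was not given in the sources used here. Column medians lay between 0.00576 and 0.0286.

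Probes were named from the platform annotation (18976 of 31769 with 1 gene, 404 with several and left unnamed, the rest unlisted); 1 probe naming Kcnk4 with another gene was left out. Each array was centred on its median. Probes with at least 3 values per group were tested 1 by 1 with limma 3.58.1 in R 4.3.3 (lmFit, eBayes), adjusted by Benjamini-Hochberg over all 16748 probes; an exact permutation test, two-sided, was added for probes with 8 values. The number of arrays limits the precision. Values at the reference floor were those where 10 times the ratio was whole within 0.001 and at least 10. The fit was tested on simulated data. Probes were tested singly because averaging probes of unequal level and unequal gaps shifts a gene's value.

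Probes named in full were those with an unadjusted p under 0.05, non-overlapping groups, values on all 8 arrays (the rule's 5 highest and 5 lowest levels take all 9), or 4 values in 1 group and at most 1 in the other. Members, lists and alternatives were chosen with earlier results of these data known. Alternatives were centring, scale, value filters, the floor, replicate number as block, replicate 1 as batch, the variance prior, a row per gene and leaving out arrays.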

Additional observations from a re-analysis of the deposited data

Results flagged for a closer look

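In Neo, replicate 1 of Kcnab3 had a log2 ratio of -0.257, far from the other 3 arrays, which lay between 0.48 and 0.60. In Neo, replicate 2 of Kcnh2 had -0.202, far from the others at 0.13 to 0.16. These are 2 of 28 groups of 4 values examined for a single distant array, and chance gives about 1 in 20.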

How the results depend on the processing

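Of the potassium channel probes 1, Kcnj12, passed in any alternative, namely with the floor offset and replicate 1 as a batch together, a combination chosen after the data were seen (0.97, adjusted p = 0.0179). Over all probes the count of 21 past the threshold was 32 with a common scale, 2 without probes mostly at the floor, 4 with the floor offset removed, 108 with replicate 1 as a batch, 348 without both arrays numbered 1, 63 with offset and batch together, and between 0 and 88 with 1 array left out (0 without Neo replicate 2, 3 or 4, where 915, 957 and 936 probes had an unadjusted p under 0.05 in limma; 74 without Neo replicate 1 and 88 without HDAC4 replicate 1; 3, 9 and 2 without HDAC4 replicates 2, 3 and 4). The median change of the tested potassium channel probes, 0.07, lay between -0.15 and 0.0744 with 1 array left out. Between 9 and 13 of these probes could be tested in those fits, so the medians are not over the same probes. Of the 13 probes, 11 kept the sign of their change in every alternative that gave a value. Kcnn3 was -0.07 and became 0.0607 with the floor offset removed and ranged from -0.16 to 0.0353 with 1 array left out; Kcnab2 ranged from -0.16 to 0.0045 there. Causes were not tested. The difference in filled positions, -14.6 percentage points, lay between -17.5 and -11.8 with 1 array left out.

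With the replicate block 9 of all probes passed and none of the potassium channel probes, where Kcnk2 had the smallest adjusted p (0.295). At an unadjusted p under 0.05 in limma there were 4 potassium channel probes with the block (Kcnk2, Kcnn1, Kcnj12 and Kcnk5), against 2 in the main fit. Over all 16748 probes there were 1934 with the block, against 1177 in the main fit. The correlation of same-numbered arrays' deviations from their group means was 0.52, 0.29, 0.19 and 0.097 for numbers 1 to 4. The last lies under 0.1, a mark chosen here, so the arrays were taken to share only a number. This does not show that they were unpaired. HDAC4 replicates 1, 2 and 3 and Neo replicates 1, 2 and 4 each correlated best with the array of their own number. HDAC4 replicate 4 correlated best with Neo replicate 2 (0.24), and Neo replicate 3 with HDAC4 replicate 4 (0.20).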
